A study of Schmidtea mediterranea with 24 samples.

Results

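To read the effect of *yki* knockdown without a wound, intact *yki(RNAi)* planarians were compared with intact *control(RNAi)* planarians. These are 6 of the 24 RNAseq libraries of the study, 3 of each condition, taken by their labels, and the comparison covers every transcript of the count table, 82669 in all. All animals came from CIW4, a clonal strain of *Schmidtea mediterranea*, and were fed double-stranded RNA against *yki* or a control (named GFP in the table) 3 times at intervals of 3 days. After 15 days, spent in a high salt treatment, both groups were irradiated with 60 Gy, and they were collected uncut 24 hours later, each library from a pool of more than 8 animals. The other libraries hold pools of 15 tail fragments from animals treated the same way. These animals were cut 24 hours after irradiation and their tails collected at 6, 12 or 24 hours post amputation (hpa). The tails were thus collected later after irradiation than the intact animals. Because *control(RNAi)* animals were irradiated too, the comparison describes *yki(RNAi)* on an irradiated background that both groups share. The labels call the 3 libraries of a group biological replicates. By the study's methods, animals were starved for 1 week before this feeding, whereas the labels place a week of starvation before collection.

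Yorkie is the transcriptional coactivator at the end of the Hippo pathway. In flies and mammals the Hippo kinases phosphorylate it and keep it out of the nucleus, and it otherwise promotes growth and survival genes together with TEAD factors. In planarians, tissue is renewed by stem cells called neoblasts, which irradiation removes, and position along the body is marked by signals that are expressed largely in muscle: WNT ligands and posterior HOX genes mark the tail, and secreted WNT antagonists mark the head. Injury switches on wound-induced genes in epidermis, muscle and other tissues within hours.

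The libraries held 11021767 to 22874666 counts assigned to transcripts, and levels are given in CPM, each count relative to its library total on the customary per-million scale, with totals adjusted by the trimmed mean of M values (TMM). Of the transcripts, 25534 passed the filter on low counts. On log2(CPM + 1), over transcripts at 5 CPM or more, correlations were 0.981 to 0.988 between *control(RNAi)* libraries, 0.992 to 0.997 between *yki(RNAi)* libraries and 0.966 to 0.982 across the groups. The *control(RNAi)* libraries were the more spread out of the groups: the first principal component (58.8% of the variance) put them at -17.2 (A), -24.9 (B) and -8.29 (C), with the *yki(RNAi)* libraries between 16.4 and 17.1. Control C was thus the control nearest to the *yki(RNAi)* libraries. The piwi-class transcripts *piwi-2* and *piwi-3* were at 224 to 354 CPM and 185 to 229 CPM, whereas *piwi-1*, the usual neoblast marker, was at 3.67 to 10.8 CPM and *PCNA*, the replication clamp, at 0.465 to 1.28 CPM over the 6 libraries.

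The knockdown was present in every *yki(RNAi)* library. *yki* (SmedASXL_011598) was at 97.8, 102 and 94.9 CPM in *control(RNAi)* replicates A, B and C and at 19.6, 18.6 and 18.7 CPM in *yki(RNAi)* replicates A, B and C. Reads of a second identifier, SmedASXL_074520, are counted in the same entry. The groups did not overlap, and the means were 98.2 ± 3.52 CPM and 18.98 ± 0.5503 CPM (SD, n = 3 each), with a log2 fold change of -2.37 (SE 0.08, adjusted p = 2.72e-08).

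Each transcript was tested with edgeR's quasi-likelihood test, with Benjamini-Hochberg adjustment over all transcripts tested. A transcript was called when its adjusted p was under 0.05 and the higher of the fitted levels at least 25% above the lower. By this rule 428 transcripts rose in intact *yki(RNAi)* animals (1.68% of those tested) and 505 fell (1.98%), 933 in all (3.65%). The falls were larger than the rises. The median rise was 0.52 and the median fall -0.76 on the log2 scale, and 168 falls but 40 rises were at least 2-fold. Of the transcripts called, 44 falls and 3 rises were at least 4-fold. Only 32 of the rises and 8 of the falls carry a gene name in the count table or in the gene lists of the study, out of 211 named transcripts tested, so most of the change is in transcripts known here by identifier alone.

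How many transcripts passed depended on single libraries. Without control C the counts were 1179 higher and 1763 lower. They were 322 higher and 538 lower without control A, and 128 and 230 without control B. Without *yki(RNAi)* B they were 101 and 159, without *yki(RNAi)* C 114 and 208, and without *yki(RNAi)* A 283 and 335. None of the 933 called transcripts changed sign when any library was left out. In all, 239 of the 933 (25.6%) were called the same way without each of the 6 libraries in turn, 89 of them higher and 150 lower, and their median log2 fold changes were 0.77 and -1.24.

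**Figure D1:**
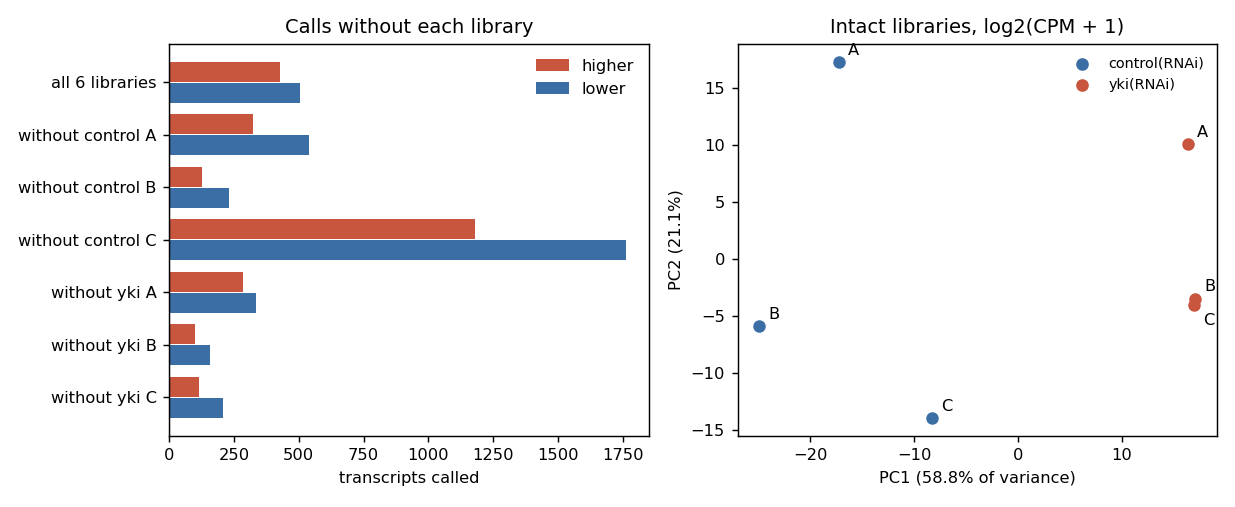
Left, number of transcripts called higher (red) or lower (blue) in intact *yki(RNAi)* animals with all 6 libraries and without each one. Right, first and second principal components of log2(CPM + 1) in the 6 intact libraries, lettered by replicate; control C, at -8.29, lies nearest to the *yki(RNAi)* libraries, and leaving it out gave the most calls.

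The 4 HOX transcripts of the study's tail-enriched list rose in intact *yki(RNAi)* animals, as did most of that list, and 3 of the 4 lost their call without 1 library or another. Of 18 wound-induced genes that the study lists as tail-enriched, all 18 were tested, 13 rose and none fell (1.68% and 1.98% of all transcripts tested), with a median log2 fold change of 0.75 against -0.01 over all transcripts tested. The study chose this list partly from these libraries, as genes higher in *control(RNAi)* tails than in the intact controls used here, and higher in *yki(RNAi)* tails than in *control(RNAi)* tails, so the count is not independent evidence of its direction. Of the 14 wound-induced genes that the study lists as not tail-enriched, also chosen partly from these libraries, 13 were tested, 1 rose (*IMDH2*) and none fell, with a median of 0.03.

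HOX genes specify position along the body axis in many animals. *Hox7b* (SmedASXL_008764) was at 1.75, 1.246 and 1.92 CPM in controls A, B and C and at 4.496, 5.67 and 7.08 CPM in *yki(RNAi)* A, B and C. Its groups did not overlap (log2 fold change 1.796, SE 0.23, adjusted p = 0.0011). *Post-2C* was at 3.41, 3.74 and 3.35 CPM in controls and 5.74, 9.096 and 7.08 CPM in *yki(RNAi)* animals (log2 fold change 1.08, SE 0.19, adjusted p = 0.0073). *Post-2d* was at 6.21, 6.96 and 8.08 CPM and 10.3, 16.3 and 14.4 CPM (log2 fold change 0.95, SE 0.17, adjusted p = 0.0087). Both belong to the Post-2 class of posterior HOX genes, and for both the lowest *yki(RNAi)* library, A, still lay above the highest control. *Hox4b* was at 4.897, 4.84 and 6.12 CPM and 8.53, 11.6 and 10.9 CPM (log2 fold change 0.96, SE 0.16, adjusted p = 0.0053). All 4 HOX transcripts were low in abundance, under 20 CPM in every intact library. *Hox7b* kept its call without each library. *Post-2C* and *Hox4b* lost theirs without *yki(RNAi)* B (log2 fold change 0.87, adjusted p = 0.066, and 0.85, adjusted p = 0.056). *Post-2d* lost its call without *yki(RNAi)* B (0.78, adjusted p = 0.080) or C (0.90, adjusted p = 0.055).

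*Sp5* (SmedASXL_006379), a zinc-finger factor that is a direct target of WNT signaling in vertebrates, was at 10.4, 13.05 and 17.2 CPM in controls and 23.1, 31.2 and 31.4 CPM in *yki(RNAi)* animals (log2 fold change 1.05, SE 0.17, adjusted p = 0.0039). Its mean went from 13.6 ± 3.44 CPM to 28.5 ± 4.72 CPM (SD, n = 3), and its call was kept without each library. *NKX2.3-like*, a homeobox gene of the tail-enriched list, had a log2 fold change of 0.60 (adjusted p = 0.040), a call lost without control A, control B, *yki(RNAi)* B or *yki(RNAi)* C (adjusted p = 0.092 to 0.26). A beta-catenin-like transcript (0.73, adjusted p = 0.046) and a death domain containing transcript (0.73, adjusted p = 0.049) passed with all 6 libraries. Among the leave-outs the first was called only without control B and the second only without *yki(RNAi)* A. Of the 5 members of the list that were not called, *Fzd-4-2* (0.50), *D6RI25* (0.35) and SmedASXL_067457 (0.96) nonetheless had every *yki(RNAi)* library above every control, whereas *red* (0.08) and SmedASXL_075613 (-0.17) overlapped. Over all transcripts tested, 12.6% had every *yki(RNAi)* library above every control. Without control A, *yki(RNAi)* B or *yki(RNAi)* C, 8, 5 and 7 members of the list were called higher in place of 13. Without each library in turn 5 stayed called, among them *Hox7b*, *ODBA*, *SCOT1* and SmedASXL_019398.

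**Figure D2:**
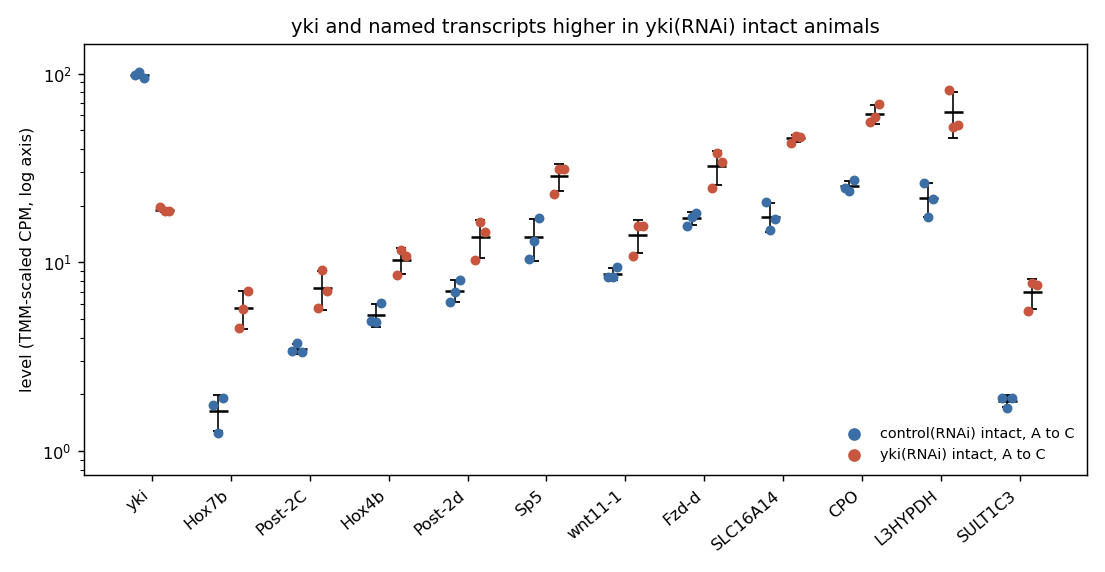
Level in each intact library (TMM-scaled CPM, log axis) of *yki* and of 11 transcripts called higher, for *control(RNAi)* (blue) and *yki(RNAi)* (red). Points are replicates A, B and C from left to right, horizontal lines the means and bars 1 SD; in each of the 11 every *yki(RNAi)* library lies above every control, and for *yki* the order is the opposite.

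Within the WNT pathway some members were called higher, and most of these lost their call without 1 library or another. WNT ligands bind Frizzled receptors, and the secreted antagonists of the sFRP family and *notum* restrain them. Of the 7 ligand transcripts named in the table, 6 were tested, 1 rose and none fell (median 0.44). *wnt11-1* (SmedASXL_016131), expressed in the planarian tail, was at 8.39, 8.36 and 9.42 CPM in controls and 10.9, 15.5 and 15.5 CPM in *yki(RNAi)* animals (log2 fold change 0.68, SE 0.15, adjusted p = 0.024). Its call was lost without control A (adjusted p = 0.051), control B (0.12), *yki(RNAi)* B (0.17) or *yki(RNAi)* C (0.15), with a log2 fold change between 0.59 and 0.83 over the 6 leave-outs. *wnt11-2*, a ligand from the tail-enriched list that is not counted among those 7, also passed the test (0.62, adjusted p = 0.040). Its call was lost without control A, control B, *yki(RNAi)* A, *yki(RNAi)* B or *yki(RNAi)* C (adjusted p = 0.060 to 0.22). *wnt1*, which the planarian tail pole expresses and wounds induce, was at 0.874, 0.586 and 0.625 CPM in controls and 1.16, 1.87 and 1.47 CPM in *yki(RNAi)* animals. Its log2 fold change of 1.17 did not pass (adjusted p = 0.062), although no *yki(RNAi)* library fell among the controls, and it passed without the filter on low counts (adjusted p = 0.029) and with all 24 libraries in 1 fit (0.0054). *wntP-2* had a log2 fold change of 0.25, *wntP-3* of 0.54, *wnt11-6* of 0.34 and *wnt2-1*, an anterior ligand, of -0.31, with adjusted p-values of 0.19, 0.38, 0.080 and 0.25. Of these *wnt11-6* passed with all 24 libraries in 1 fit (adjusted p = 0.0092) and without control C (0.013).

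Among 5 receptors and antagonists, 1 rose and none fell (median -0.14). The receptor *Fzd-d* (SmedASXL_012003) went from 15.7, 17.4 and 18.3 CPM in controls to 24.9, 37.8 and 33.98 CPM in *yki(RNAi)* animals (log2 fold change 0.91, SE 0.14, adjusted p = 0.0033), and kept its call without each library. *notum*, a secreted enzyme that inactivates WNT ligands, was at 1.22, 1.39 and 1.34 CPM and 0.9302, 3.06 and 2.62 CPM. The *yki(RNAi)* libraries disagreed on it, since A lay below every control and B and C above, and its difference did not pass (log2 fold change 0.80, SE 0.35, adjusted p = 0.24). Without *yki(RNAi)* A it did (log2 fold change 1.11, adjusted p = 0.036). The antagonist *sfrp-a* and the receptors *LGR4* and *LGR4l* had log2 fold changes of -0.20, -0.44 and -0.14, with adjusted p-values of 0.49, 0.32 and 0.47. *LGR4* was called lower without control C (-0.75, adjusted p = 0.0072). Inside the cell, *dvl-b* (0.03, adjusted p = 0.88) and *TCF-3* (0.28, adjusted p = 0.69) did not pass. Of 5 further pathway names tested, which were added after the names in the table were seen, *sfrp2* rose (0.51, adjusted p = 0.020) and lost its call without control B, *yki(RNAi)* A, *yki(RNAi)* B or *yki(RNAi)* C (adjusted p = 0.062 to 0.11), and *Bcat-1*, the planarian β-catenin, had a log2 fold change of 0.07 (adjusted p = 0.66). *Evi/Wls*, which carries WNT ligands to the cell surface, rose by 0.46 on the log2 scale (adjusted p = 0.035), a call lost without control B, *yki(RNAi)* A, *yki(RNAi)* B or *yki(RNAi)* C (adjusted p = 0.072 to 0.21). *porcnA*, named for the acyltransferase that lipidates WNT ligands, was abundant and rose, from 579, 651 and 635 CPM to 794, 793 and 802 CPM (log2 fold change 0.36, SE 0.09, adjusted p = 0.038), and among the leave-outs it was called only without control C.

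Several of the other named rises carry the names of metabolic enzymes or of a transporter, and they were picked out after the values were seen. The names are closest matches in other species. *SCOT1*, named for the enzyme that activates ketone bodies for oxidation, was at 128, 113 and 123 CPM in controls and 212, 193 and 214 CPM in *yki(RNAi)* animals (log2 fold change 0.77, SE 0.09, adjusted p = 4.44e-04). *ODBA*, named for a subunit of the branched-chain keto acid dehydrogenase, had means of 25.6 ± 3.18 CPM and 45.3 ± 6.197 CPM (SD, n = 3), with a log2 fold change of 0.83 (SE 0.12, adjusted p = 0.0025). Both are members of the tail-enriched list, and their groups were wide apart relative to their spread. *KYNU*, kynureninase of tryptophan breakdown, rose by 0.66 (adjusted p = 0.0034) and *L3HYPDH*, a proline metabolism enzyme, by 1.52 (adjusted p = 6.07e-04), both on the log2 scale. *ALAD*, of heme synthesis, rose by 0.50 (adjusted p = 0.026) and lost its call without control B, *yki(RNAi)* A, *yki(RNAi)* B or *yki(RNAi)* C (adjusted p = 0.079 to 0.15).

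*CPO*, named for a carboxypeptidase, was at 24.8, 23.8 and 27.3 CPM in controls and 55.2, 59.1 and 69.2 CPM in *yki(RNAi)* animals (log2 fold change 1.27, SE 0.10, adjusted p = 5.24e-05). *SULT1C3*, a sulfotransferase, was at 1.92, 1.69 and 1.92 CPM and 5.504, 7.77 and 7.55 CPM (log2 fold change 1.92, SE 0.19, adjusted p = 2.01e-04). *SLC16A14*, a member of the monocarboxylate transporter family, was at 20.8, 14.8 and 16.9 CPM and 42.9, 46.8 and 46.4 CPM (log2 fold change 1.38, SE 0.12, adjusted p = 6.38e-05). Each of these 3 had at least a 2-fold gap in mean, and none of their libraries crossed between the groups. *L3HYPDH* also more than doubled, from 21.8 ± 4.49 CPM to 62.6 ± 16.97 CPM (SD, n = 3), with *yki(RNAi)* A the highest. *IMDH2*, named for the rate-limiting enzyme of guanine nucleotide synthesis, went from 82.5, 76.3 and 88.6 CPM to 99.6, 136 and 130.5 CPM (log2 fold change 0.57, SE 0.12, adjusted p = 0.017) and lost its call without control B (adjusted p = 0.11), *yki(RNAi)* B (0.14) or *yki(RNAi)* C (0.11). Enzymes were not all higher: of 14 in the list, 9 rose and 3 fell (*CYP2J2*, *PHYHD1* and *PANK4*), where 1.68% of all transcripts tested rose and 1.98% fell. The 14 come from the study's gene lists and were picked out after the values were seen. Their counts are thus not independent evidence that enzymes changed more often than other transcripts. *MPPED1* (-0.81, adjusted p = 0.079) and *GNPNAT1* (-0.15, adjusted p = 0.63) did not pass.

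The wound-induced genes of an earlier study moved in both directions without a wound. Of its 97 genes listed, 93 were tested, 17 rose and 9 fell (18.3% and 9.68% of those tested), and the median was 0.04. The study describes the genes it shows from that work as higher in *control(RNAi)* tails than in the intact controls used here. The counts are thus not independent evidence of direction. Over all transcripts 1.68% rose and 1.98% fell. Without control B, *yki(RNAi)* B or *yki(RNAi)* C, 9, 8 and 8 members were called higher, and 3, 3 and 4 lower. The largest rises were in *SULT1C3*, *L3HYPDH*, *SLC16A14* and *CPO*, given above, and in SmedASXL_013530, which was at 12.9, 14.7 and 16.4 CPM in controls and 15.3, 55.2 and 51.3 CPM in *yki(RNAi)* animals (log2 fold change 1.47, SE 0.33, adjusted p = 0.030). That last call rested on *yki(RNAi)* B and C, since A lay among the controls, and it was lost without control A, control B, *yki(RNAi)* B or *yki(RNAi)* C (adjusted p = 0.058, 0.12, 0.16 and 0.14). *SBSPON*, a thrombospondin-domain protein, rose by 0.91 (adjusted p = 0.0090) and lost its call without *yki(RNAi)* B or *yki(RNAi)* C (adjusted p = 0.059 to 0.079). Thyroid hormone receptor-1 rose by 0.65 (adjusted p = 0.021) and lost its call without control B, *yki(RNAi)* B or *yki(RNAi)* C (adjusted p = 0.11 to 0.14).

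Among the falls of that list, *inhibin-1*, a ligand of the TGF-β superfamily, was at 5.33, 10.04 and 9.02 CPM in controls and 0.9302, 1.69 and 2.78 CPM in *yki(RNAi)* animals (log2 fold change -2.14, SE 0.30, adjusted p = 0.0020). *hadrian*, an epidermal wound gene, was at 38.6, 54.3 and 34.4 CPM and 10.2, 18.7 and 21.1 CPM (log2 fold change -1.32, SE 0.22, adjusted p = 0.0053). For both, every *yki(RNAi)* library lay below every control, and both kept their calls without each library. *PHYHD1*, of a dioxygenase family, was at 12.1, 24.6 and 21.1 CPM and 3.57, 6.902 and 9.96 CPM (log2 fold change -1.47, SE 0.29, adjusted p = 0.014) and lost its call without control B or *yki(RNAi)* B (adjusted p = 0.066 and 0.085). *PANK4*, of the pantothenate kinase family, was at 32.4, 27.6 and 25.4 CPM and 23.8, 15.95 and 17.5 CPM (log2 fold change -0.59, SE 0.14, adjusted p = 0.042) and lost its call without control A, control B, *yki(RNAi)* B or *yki(RNAi)* C (adjusted p = 0.094, 0.12, 0.22 and 0.19).

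The study annotates some of these wound genes to a cell type, and the same limit on independence applies to their counts. Of 14 annotated to muscle, all 14 were tested, 5 rose and 2 fell (median 0.34), where 1.68% of all transcripts tested rose and 1.98% fell. Among the rises were *NOTCH1*, a signaling receptor, *Evi/Wls*, *X1.A2.3* and SmedASXL_014286, named here after their values were seen. *NOTCH1* was at 11.6, 11.6 and 11.5 CPM in controls and 18.7, 18.1 and 18.4 CPM in *yki(RNAi)* animals (log2 fold change 0.67, SE 0.10, adjusted p = 0.0028), and it was the member of the group with the tightest replicates. *X1.A2.3* was at 5.77, 6.23 and 8.08 CPM and 9.302, 12.5 and 12.7 CPM (log2 fold change 0.77, SE 0.16, adjusted p = 0.023). *NOTCH1* alone of the 5 rises stayed called without each library. *X1.A2.3* lost its call without control A, control B, *yki(RNAi)* B or *yki(RNAi)* C (adjusted p = 0.054 to 0.15) and SmedASXL_014286 (0.39, adjusted p = 0.025) without control A, control B, *yki(RNAi)* A, *yki(RNAi)* B or *yki(RNAi)* C (adjusted p = 0.062 to 0.15). The muscle-annotated falls were *inhibin-1* and SmedASXL_009408 (-0.84, adjusted p = 0.030), which lost its call without control B, *yki(RNAi)* A, *yki(RNAi)* B or *yki(RNAi)* C (adjusted p = 0.067 to 0.14). None of the 4 genes annotated to epidermis and none of the 2 annotated to gut passed, and their medians were -0.40 and 0.20. *hadrian* is the 1 gene annotated to a second epidermal class.

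**Figure D3:**
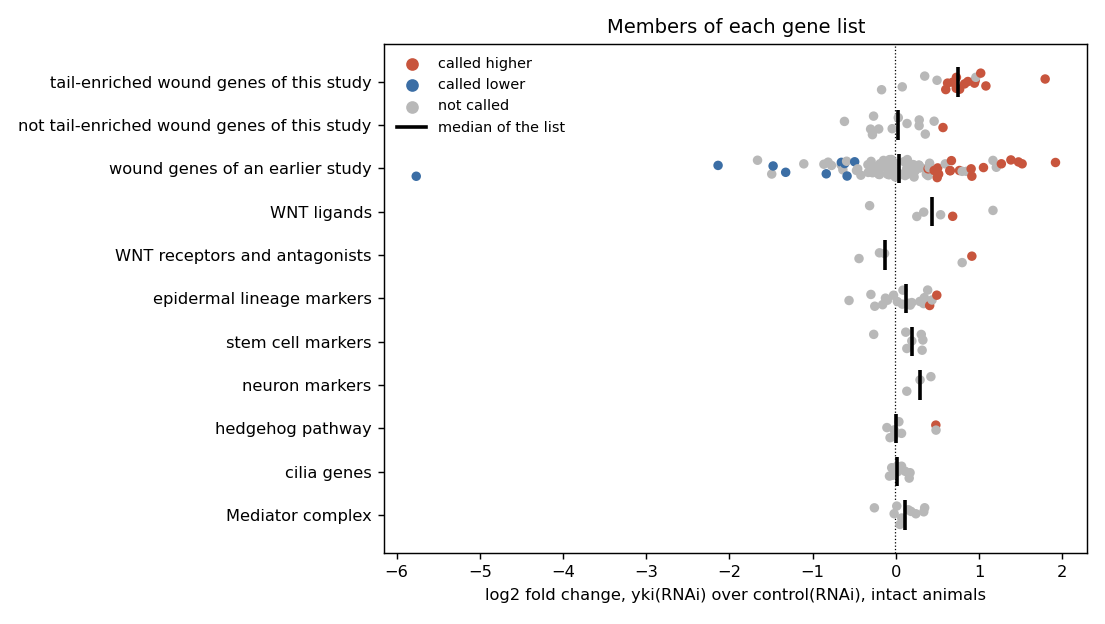
Log2 fold change in intact animals of each tested member of 11 gene lists (points; red, called higher; blue, called lower; grey, not called). Black bars mark the median of each list and the dotted line the median of all transcripts; the tail-enriched list lies to the right, with 13 of 18 members called higher.

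The markers that the study uses for the wound response and for tissues in intact animals mostly did not pass the test, although some passed under other settings. The study assayed these markers in intact animals by whole-mount in situ hybridization, and quantified *prog-2*, *AGAT-1* and *collagen* from the images. The values here are RNA levels of whole irradiated animals, a different measure, so they do not repeat that assay. *fos-1*, an immediate early wound gene, was at 45.3, 51.3 and 49.2 CPM in controls and 49.1, 69.4 and 69.5 CPM in *yki(RNAi)* animals (log2 fold change 0.37, SE 0.12, adjusted p = 0.13). *jun-1*, its usual partner in AP-1, was at 14.7, 22.6 and 18.5 CPM and 12.8, 19.6 and 19.2 CPM (log2 fold change -0.10, SE 0.17, adjusted p = 0.80). For neither gene did the groups separate. For *fos-1*, *yki(RNAi)* A lay among the controls and B and C above them, and it passed without the filter on low counts (adjusted p = 0.026), with all 24 libraries in 1 fit (0.030) and without *yki(RNAi)* A (0.016). For *jun-1*, *yki(RNAi)* B and C lay among the controls and A below them. No tested transcript carried the names *delta-1* or *AGAT-1*; the transcript listed as *DLL4*, delta-like 4, had a log2 fold change of 0.37 (adjusted p = 0.052). *klf* (SmedASXL_005628), the Kruppel-like early response factor, had 0.40 (adjusted p = 0.18) and passed without the filter (adjusted p = 0.039). The collagens *COL4A2* and collagen-alpha-5, structural proteins of the matrix, had log2 fold changes of 0.41 (adjusted p = 0.19) and -0.21 (adjusted p = 0.68). They were matched to the study's *collagen* marker by name alone, and the study gives collagen-alpha-5 as a wound-induced gene. For *COL4A2*, control C (93.2 CPM) lay among the *yki(RNAi)* libraries (85.0 to 102 CPM), and controls A and B lay below them (56.7 and 59.2 CPM). *COL4A2* passed without the filter (adjusted p = 0.0072) and without control C (log2 fold change 0.66, adjusted p = 0.0011).

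Epidermal progenitors express the *prog* genes as they leave the stem cell compartment. Of 20 epidermal lineage transcripts tested, 2 rose and none fell (median 0.12). *prog-1b* was at 285, 211 and 219 CPM in controls and 358, 315 and 333 CPM in *yki(RNAi)* animals (log2 fold change 0.49, SE 0.11, adjusted p = 0.034), and *prog1g* at 112, 108 and 109.6 CPM and 142, 146 and 149.9 CPM (log2 fold change 0.41, SE 0.08, adjusted p = 0.012). Neither overlapped between groups. *prog1g* lost its call without control B, *yki(RNAi)* B or *yki(RNAi)* C (adjusted p = 0.083, 0.11 and 0.11), and *prog-1b* without those or *yki(RNAi)* A (adjusted p = 0.19, 0.12, 0.15 and 0.10). *prog-2* was at 218, 339 and 359 CPM and 253, 468 and 474 CPM, and its paralog *prog-2a* at 100.3, 159.6 and 197 CPM and 132, 235 and 252 CPM. Replicate A was the lowest library of both conditions for both transcripts, and neither difference passed (0.38, adjusted p = 0.37, and 0.44, adjusted p = 0.35). Without the filter on low counts both passed (0.41, adjusted p = 0.0045, and 0.46, adjusted p = 0.0011). The *prog* transcripts resemble each other, and how reads shared between them were assigned is not stated. The summed level of the 20 transcripts was 2394, 3041 and 3027 CPM in controls and 2725, 3312 and 3473 CPM in *yki(RNAi)* animals, which overlap.

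None of 7 stem cell markers tested passed (median 0.19). *piwi-2*, a PIWI-family gene, was at 224, 274 and 281 CPM in controls and 276, 334 and 354 CPM in *yki(RNAi)* animals (log2 fold change 0.31, SE 0.11, adjusted p = 0.17). *piwi-3* had 0.13 (adjusted p = 0.45), *piwi-1* -0.27 (adjusted p = 0.71), *bruli* 0.32 (adjusted p = 0.20, and 0.047 without control C), *chd4* 0.19 (adjusted p = 0.20), *mcm2* 0.12 (adjusted p = 0.92) and *PCNA* 0.33 (adjusted p = 0.71). The summed level of the stem cell list was 552, 633 and 639 CPM in controls and 644, 729 and 754 CPM in *yki(RNAi)* animals, so the sums narrowly did not overlap. Most of the sum is *piwi-2* and *piwi-3*, and *piwi-1*, *mcm2* and *PCNA* overlapped between the groups. Of the members only *chd4* had every *yki(RNAi)* library above every control, as did 12.6% of all transcripts tested. In whole-animal RNA, more cells of a type and more RNA per cell cannot be told apart. Any part of this difference in the other results was not tested. The neuronal factors *COE* (0.29), *PAX5-1* (0.13) and *PAX6-2* (0.42) did not pass (adjusted p = 0.22, 0.50 and 0.49).

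None of 4 BMP and activin pathway transcripts passed: *activin* had -0.29 (adjusted p = 0.25), *activin-receptor-1* 0.15 (adjusted p = 0.37), *smad23* -0.06 (adjusted p = 0.75) and *follistatin* 0.12 (adjusted p = 0.63). The 3 FGF receptor-like *ndk* genes, which restrict brain tissue to the head, had log2 fold changes of 0.03 (*ndk-4*), 0.04 (*ndk-3*) and 0.05 (*ndk*), with adjusted p-values of 0.94, 0.88 and 0.84. The DNA damage genes *Ku80* (0.02, adjusted p = 0.95) and *ATM* (0.18, adjusted p = 0.68), of interest in irradiated animals, did not pass. Both *NKX2.1* transcripts (Smed-NKX2.1_smed015323 and SmedASXL_011486) and *porcn-B* were at -0.02, 0.07 and -0.10, with adjusted p-values of 0.97, 0.76 and 0.66.

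Further lists were added after the names in the table were seen. Of 8 hedgehog pathway transcripts tested, *gli-1*, the transcription factor of the pathway, rose from 39.8, 44.05 and 43.98 CPM to 57.98, 62.8 and 57.8 CPM (log2 fold change 0.48, SE 0.08, adjusted p = 0.0081) and lost its call without *yki(RNAi)* B or *yki(RNAi)* C (adjusted p = 0.052 to 0.097). None of the other 7 passed. None of 10 cilia transcripts (median 0.02) or 10 Mediator transcripts (median 0.11) passed. Of 7 spondin transcripts none passed, and the largest difference was in SmedASXL_019263 (0.54, adjusted p = 0.065). Of 11 neural fate factors and RNA-binding proteins tested, 1 fell and none rose: *ascl-1*, a proneural factor, was at 30.3, 31.9 and 22.9 CPM in controls and 19.9, 16.4 and 20.3 CPM in *yki(RNAi)* animals (log2 fold change -0.58, SE 0.13, adjusted p = 0.032). It was called only without control C among the leave-outs.

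The deepest falls were in transcripts that also varied widely among controls. SmedASXL_006360 was at 88.7, 1102 and 514 CPM in controls A, B and C and at 3.33, 4.75 and 5.45 CPM in *yki(RNAi)* animals (log2 fold change -6.95, SE 0.75, adjusted p = 3.12e-04). SmedASXL_004241 was at 98.02, 686 and 495 CPM and 4.19, 5.85 and 4.67 CPM (log2 fold change -6.42, SE 0.59, adjusted p = 1.14e-04), and SmedASXL_074705 at 7.69, 113 and 53.3 CPM and 0.543, 1.46 and 1.101 CPM (log2 fold change -5.71, SE 0.80, adjusted p = 0.0020). In all 3 the control libraries differed widely from each other, with A lowest and B highest, yet the lowest control lay above every *yki(RNAi)* library. A lectin-like transcript (SmedASXL_004185), of a family of sugar-binding proteins often secreted by glands, was at 61.3, 686 and 361 CPM and 3.41, 7.22 and 9.12 CPM (log2 fold change -5.77, SE 0.70, adjusted p = 7.46e-04). *CYP2J2* (SmedASXL_018870), named for a cytochrome P450, was at 3.15, 109 and 69.3 CPM and 0.0775, 1.65 and 1.26 CPM (log2 fold change -5.76, SE 0.96, adjusted p = 0.0054). Its lowest control, A, was only 1.91 times the highest *yki(RNAi)* library, and its level of 0.0775 CPM in *yki(RNAi)* A is that of a single count.

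Of the 505 falls, 21 had controls that spanned more than 3-fold (median 6.67-fold), and in 16 of the 21 the order from low to high was A, C, B. Their median log2 fold change was -4.24, with a range of -6.95 to -1.47. In 20 of the 21 every control lay above every *yki(RNAi)* library. The same held for 503 of the 505 falls, so this does not set the 21 apart, and for 10.8% of all transcripts tested. Summed over the 21, the level was 1017, 6513 and 3887 CPM in controls A, B and C and 186, 252 and 236 CPM in *yki(RNAi)* A, B and C. Controls A and B thus stood far apart, with both above every *yki(RNAi)* library. The secretory mucin transcript *mucin*, the other member of the gland list, was at 25.8, 19.6 and 37.3 CPM and 31.2, 22.8 and 14.8 CPM and did not pass (log2 fold change -0.30, SE 0.25, adjusted p = 0.56). Of the same 21 transcripts, 19, 20 and 15 were called lower in tails at 6, 12 and 24 hpa, where 3.29%, 9.95% and 2.33% of all transcripts tested were. Their summed level in *control(RNAi)* tails was 2124 to 12425, 11358 to 13542 and 4226 to 12217 CPM at those times. In *yki(RNAi)* tails the sums were 125 to 306, 204 to 218 and 200.2 to 772 CPM, below every *control(RNAi)* tail library.

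**Figure D4:**
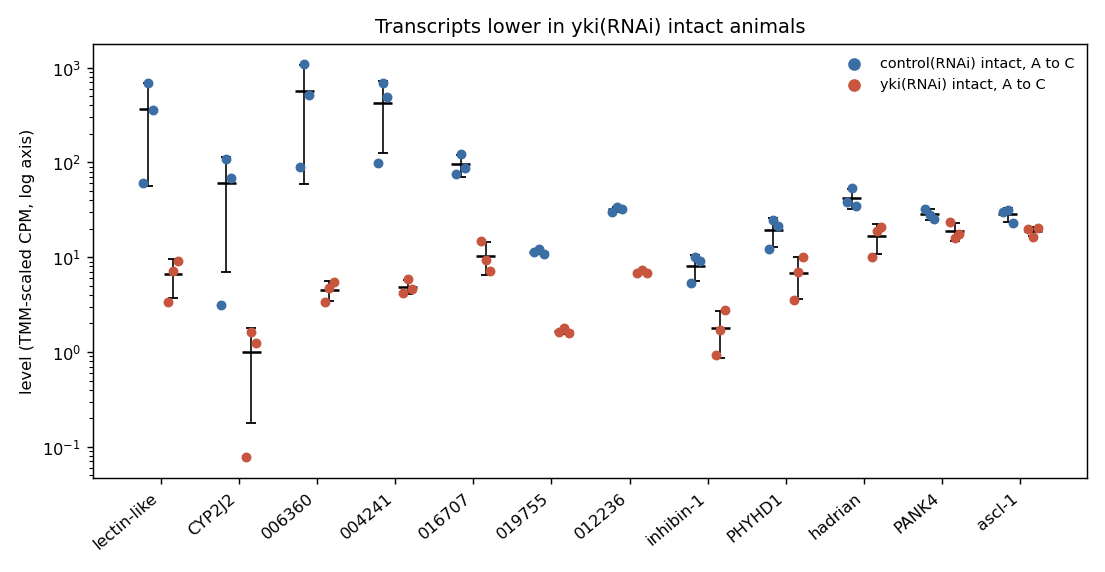
Level in each intact library (TMM-scaled CPM, log axis) of 12 transcripts called lower, for *control(RNAi)* (blue) and *yki(RNAi)* (red), replicates A, B and C from left to right, with means and 1 SD; numbers are the last digits of SmedASXL identifiers. The first 4 transcripts spread widely among controls, whereas SmedASXL_019755 and SmedASXL_012236 are tight in both groups.

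Other falls were smaller but tighter, and apart from *yki* they include the calls of smallest p. SmedASXL_012236 was at 30.1, 33.6 and 32.5 CPM in controls and 6.82, 7.36 and 6.82 CPM in *yki(RNAi)* animals (log2 fold change -2.19, SE 0.10, adjusted p = 4.20e-07). SmedASXL_019755 was at 11.3, 12.2 and 10.8 CPM and 1.63, 1.78 and 1.57 CPM (log2 fold change -2.77, SE 0.16, adjusted p = 2.35e-06), and SmedASXL_017069 at 10.4, 11.9 and 11.1 CPM and 1.86, 1.600 and 2.097 CPM (log2 fold change -2.59, SE 0.16, adjusted p = 6.31e-06). The replicates of all 3 lay close together in both groups. SmedASXL_016707 was at 74.7, 122 and 88.3 CPM and 14.7, 9.37 and 7.13 CPM (log2 fold change -3.23, SE 0.23, adjusted p = 2.23e-05) and SmedASXL_018718 at 92.6, 112 and 88.5 CPM and 38.4, 34.8 and 32.2 CPM (log2 fold change -1.48, SE 0.11, adjusted p = 2.56e-05). All 5 kept their calls without each library. No name or role is given for them in the files.

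Transcripts without a name also led the rises. SmedASXL_006170 was nearly silent in controls, at 0.175, 0.293 and 0.0893 CPM, and was at 1.395, 5.302 and 3.41 CPM in *yki(RNAi)* animals (log2 fold change 4.31, SE 0.58, adjusted p = 0.0014). SmedASXL_080298 was at 0.437, 0.4397 and 0.179 CPM and 2.17, 1.78 and 2.52 CPM (log2 fold change 2.71, SE 0.36, adjusted p = 0.0014), and SmedASXL_010173 at 5.25, 1.54 and 1.83 CPM and 20.3, 7.77 and 9.39 CPM (log2 fold change 2.18, SE 0.42, adjusted p = 0.014). For SmedASXL_010173 replicate A was the highest library of both conditions, and the call was lost without control B (adjusted p = 0.073). Among the rises of smallest p, beside *CPO* and *SLC16A14*, were SmedASXL_061470, at 64.2, 49.2 and 50.2 CPM and 135, 121 and 126 CPM (log2 fold change 1.23, SE 0.11, adjusted p = 9.02e-05), and SmedASXL_018969, at 21.9, 20.5 and 25.4 CPM and 55.4, 47.5 and 46.9 CPM (log2 fold change 1.13, SE 0.11, adjusted p = 1.39e-04). SmedASXL_006792 (0.99, adjusted p = 1.40e-04), SmedASXL_013793 (1.39, adjusted p = 1.74e-04) and SmedASXL_019398 (1.02, adjusted p = 0.0013) also rose.

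The *yki(RNAi)* and *control(RNAi)* tails share no library with the intact comparison, so the intact calls were read in them as separate samples. Of the 428 rises in intact animals, 227 (53.04%), 236 (55.1%) and 179 (41.8%) were also called higher in tails at 6, 12 and 24 hpa, where 2.25%, 9.57% and 1.35% of the transcripts tested were called higher. They made up 37.5%, 8.68% and 48.1% of the rises called in tails at those times. Of the 505 falls, 288 (57.0%), 386 (76.4%) and 236 (46.7%) were also called lower in tails, where 3.29%, 9.95% and 2.33% of the transcripts tested were called lower, and they made up 32.6%, 13.7% and 36.6% of the falls in tails. Much of the intact change was thus present in amputated tails too. Opposite calls were few: 1, 5 and 0 of the rises were called lower and 0, 8 and 0 of the falls called higher at 6, 12 and 24 hpa. At all 3 times, 136 rises and 189 falls were called the same way, and 138 rises and 99 falls were called the same way at none.

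Taking both directions together, 55.2%, 66.7% and 44.5% of the 933 calls were also called in tails at 6, 12 and 24 hpa. Without control C, which gave the longest list of intact calls, these shares were 21.0%, 29.3% and 17.5%. Leaving out any other library gave 61.7% to 82.7%, 75.5% to 88.2% and 44.5% to 65.8%. Of the 239 calls that held without each library in turn, 206, 218 and 166 were called the same way in tails at 6, 12 and 24 hpa, 161 (67.4%) at all 3 times and 224 at 1 time or more. These include *Hox7b*, with log2 fold changes of 1.09, 1.003 and 1.46 in tails, the lectin-like transcript (-6.65, -7.46 and -5.43) and SmedASXL_012236 (-1.82, -2.03 and -1.76), each called at every time.

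**Figure D5:**
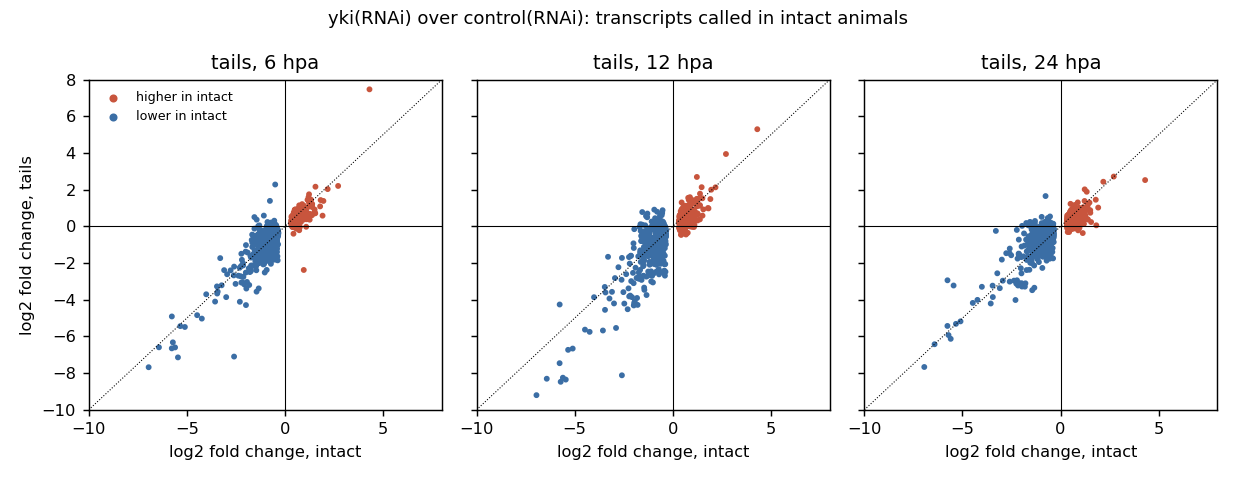
Log2 fold change of *yki(RNAi)* over *control(RNAi)* in tails at 6, 12 and 24 hpa (vertical axis) against that in intact animals (horizontal axis) for the transcripts called higher (red) or lower (blue) in intact animals; the dotted line marks equal change. Most points share the sign of the intact change: 96.0%, 88.5% and 91.8% of the rises and 95.1%, 92.2% and 93.6% of the falls that were tested in tails.

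Whether an effect differed between intact animals and tails was tested directly, as the *yki(RNAi)* effect in tails minus that in intact animals. Intact animals and tails also differ in body region and in time since irradiation, which cannot be told apart from the wound here. At 6 hpa no transcript of 30471 passed in edgeR (3045 had an unadjusted p under 0.05), and at 24 hpa 2 of 30863 (0.00648%) passed (2971 at an unadjusted p under 0.05). At 12 hpa 1664 of 31448 (5.29%) passed, 785 with a higher and 879 with a lower value in tails, and 207 of the 933 intact calls were among them. The tails at 12 hpa also had the smallest biological coefficient of variation (5.26%, against 10.8% in intact animals and 10.99% and 13.01% in tails at 6 and 24 hpa). Without control C the counts were 473, 5008 and 427 at 6, 12 and 24 hpa, and at 12 hpa they were 796 without control B and 837 without *yki(RNAi)* C. One of the 2 transcripts at 24 hpa was an intact call, SmedASXL_011785, which was named after its values were seen. It was at 143 to 227 CPM in intact controls and 71.7 to 91.9 CPM in intact *yki(RNAi)* animals, and at 41.0 to 51.2 CPM and 3.82 to 5.24 CPM in *control(RNAi)* and *yki(RNAi)* tails at 24 hpa, so it fell further in tails (difference -2.01, adjusted p = 0.021). Without any 1 of the 3 intact *yki(RNAi)* libraries, no transcript passed at 24 hpa, and without control A or B 1 passed.

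The muscle-annotated wound genes were among those whose intact effect differed from tails at 12 hpa. In 9 of the 14 the value in tails was lower, and in none higher (5.29% of all transcripts passed in either direction). *NOTCH1*, which rose in intact animals, had a log2 fold change of 0.16 in tails at 12 hpa (adjusted p of the difference = 0.011). *X1.A2.3* had -0.35 (0.0017) and *Evi/Wls* -0.13 (0.0086). *inhibin-1* is the exception among the called members, since it fell in tails at 12 hpa as in intact animals (-1.597 and -2.14, adjusted p of the difference = 0.35), and SmedASXL_009408 likewise (-0.78 and -0.84, 0.91). At 6 and 24 hpa none of the 14 passed the test of the difference.

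Epidermal lineage transcripts also differed. In tails at 12 hpa 13 of 19 tested were called lower (9.95% of all transcripts tested), 9 of 20 had a difference from the intact effect that passed, and all 9 had the lower value in tails. *prog-2* had a log2 fold change of 0.38 in intact animals, which was not called, and fell by 0.73 in tails at 12 hpa (adjusted p of the difference = 0.030). *prog-2a* gave 0.44 and -0.75 (0.031). The level of *prog-2* also moved among *control(RNAi)* libraries, from 218 to 359 CPM in intact animals to 478 to 582 CPM in tails at 6 hpa. In *control(RNAi)* tails at 12 and 24 hpa it was at 154 to 213 and 10.4 to 21.1 CPM. The rises of *Hox4b*, *Post-2C* and *Sp5* were smaller in tails at 12 hpa (0.21, 0.27 and 0.38, adjusted p of the differences = 0.016, 0.025 and 0.043), while that of *Post-2d* (0.82, 0.77) did not pass the test of the difference. *notum*, not called in intact animals, fell in tails at 12 hpa (-0.91, 0.0084).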

How the data were processed

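The 24 libraries were made with polyA selection, sequenced on an Illumina HiSeq2500 as single-end reads and mapped by the authors to the SmedASXL transcriptome with Bowtie2 2.2.4 after bcl2fastq 1.8.3. The authors deposited counts per transcript and lane with no normalization. The tool that counted reads, its handling of reads shared by paralogs and its use of strand are not given in the sources used here. Lanes were summed per library, with lane 1 alone for *yki(RNAi)* intact A, whose lane 2 column holds 22 damaged entries. Counts naming no transcript (6.35% to 7.08% of each library) were left out. Deposited sheets of the authors' own DESeq2 comparisons, with fold changes and p-values, were not used, and 0 per-sample columns were left without a sample.

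Counts were filtered with filterByExpr (minimum count 10, minimum total 15), scaled by TMM and tested with edgeR 4.0.16 (quasi-likelihood F test, R 4.3.3), intact libraries alone, and p-values were adjusted over all transcripts tested. Tails were tested the same way at each time, and the difference of effects as an interaction over 12 libraries. Tables and plots were made with Python 3.11.15, pandas 2.3.3, numpy 2.4.6 and matplotlib 3.10.9. Alternatives were DESeq2 1.42.0 (size factors and Wald test), no filter, at least 1 CPM, all 24 libraries in 1 fit, a replicate block, lane choices, fold minimums of none and 2, and leaving out each library. The scripts were tested on simulated data.

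The members and lists were chosen with earlier results of these data known. Named transcripts are *yki*; called list members, up to 5 a list, or every member of lists with under 10 tested; the 10 called transcripts with a name and the 5 of any kind of largest change in each direction with at least 1 CPM and no overlap; the study's intact markers; and the 5 further calls of smallest p in each direction. Others were named after their values were seen. Names are closest matches given by the study. Name searches for muscle and gut markers gave only *NKX2.1*, *porcnA* and *porcn-B* among tested transcripts, and these are not read as cell types here. The HOX, eye and excretory members found by name were not tested. Some named transcripts are counted in the lists but are not reported singly here.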

Additional observations from a re-analysis of the deposited data

Results flagged for a closer look

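For 27 of the transcripts named in the report or listed under muscle or the epidermal lineage, given here, the *yki(RNAi)* effect in tails at 12 hpa differed from that in intact animals, by the interaction test of edgeR with adjusted p under 0.05. Values are the log2 effect in tails minus that in intact animals. None of these differences passed at 6 or 24 hpa, and over all transcripts 5.29% passed at 12 hpa.

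Among epidermal lineage transcripts the differences were -1.36 for *prog-1i*, -1.35 for *prog-1*, -1.26 for *prog2b*, -1.17 for *prog-2a*, -1.09 for *prog-2*, -0.90 for *prog2e*, -0.63 for *prog-1h*, -0.56 for *vim-1* and -0.50 for *prog-1e*. All 9 were lower in tails. Among the 9 muscle-annotated wound genes that differed they include -1.09 for *X1.A2.3*, -0.83 for noggin-like protein 1, -0.79 for *COL4A2*, -0.58 for *Evi/Wls*, -0.50 for *NOTCH1*, -0.48 for SmedASXL_015317, -0.47 for SmedASXL_009491 and -0.36 for SmedASXL_014286.

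Of the HOX and WNT pathway genes, *notum* differed by -1.72, *Post-2C* by -0.81, *Hox4b* by -0.73 and *Sp5* by -0.65. The enzymes *L3HYPDH* and *CPO* differed by -0.91 and -0.56, and the unnamed SmedASXL_018969 and SmedASXL_018718 by -0.67 and -0.61. The difference was positive for 2 transcripts. Collagen-alpha-5 (1.01) was not called in intact animals (-0.21) and rose in tails at 12 hpa (0.80). SmedASXL_017069 (0.89) fell less in tails (-1.72) than in intact animals (-2.59).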

How the results depend on the processing

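None of the 933 calls changed sign under any alternative, which says little because nearly all had groups without overlap. Of 41 named calls, 28 stayed called without each library and 13 lost the call without at least 1, while 7 lost it under another setting. Of 41 named transcripts not called, 10 were called under at least 1 setting. They were *fos-1*, *klf*, *COL4A2*, *prog-2*, *prog-2a* and *wnt1* without the filter on low counts, *wnt11-6*, *fos-1* and *wnt1* with all 24 libraries, *LGR4*, *bruli*, *wnt11-6* and *COL4A2* without control C, and *fos-1* and *notum* without *yki(RNAi)* A. The counts higher and lower were 753 and 987 without the filter on low counts, 896 and 871 with all 24 libraries in 1 fit, and 40 and 168 with a fold minimum of 2, where 19.2% of calls were higher in place of 45.9%. Leaving out each library in turn gave 101 to 1179 higher and 159 to 1763 lower. DESeq2 size factors, both lanes, lane 1 only, no fold minimum, at least 1 CPM and the DESeq2 Wald test kept both counts within 1.5 times.

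The shares of intact calls also called in tails at 6, 12 and 24 hpa were 45.2%, 49.0% and 36.1% without the filter, 38.7%, 40.8% and 34.2% with all 24 libraries, and 49.2% and 55.2% at 6 and 12 hpa by the DESeq2 Wald test. They were 77.5% at 12 hpa with no fold minimum, and 60.6% and 40.9% at 12 and 24 hpa with a minimum of 2. Leave-outs gave 21.0% to 82.7%, 29.3% to 88.2% and 17.5% to 65.8%. Transcripts whose effect differed from tails numbered 0 to 473, 796 to 5008 and 0 to 427 over the leave-outs. In leave-outs chosen after seeing the data, 5 to 11 tail-enriched genes, 7 to 9 enzymes, and 8 to 22 wound genes of the earlier study were called higher and 3 to 12 of the latter lower.

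With replicate letter as a block, 787 were higher and 898 lower, all 933 calls included. Of the named transcripts not called, *fos-1* (adjusted p = 0.028), *prog-2* (0.015), *prog-2a* (0.0045) and *wnt11-6* (0.043) passed under the block. The tail shares under the block were 45.5%, 52.997% and 31.3%, and 1, 1675 and 3 transcripts differed from tails. Deviations from the group means correlated at 0.41 (A), 0.25 (B) and 0.056 (C) between libraries of the same letter, and control B correlated best with *yki(RNAi)* C (0.30), so the letters were not taken as pairs.

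Sign changes were confined to transcripts not called. *Ku80* was at -0.0093 with at least 1 CPM, *NKX2.1* (Smed-NKX2.1_smed015323) at 0.0013 under the block and 0.016 by the Wald test, *mcm2* at -0.049 with both lanes, and *ndk-4*, *dvl-b* and *ATM* at -0.086, -0.012 and -0.0015 with lane 1 only. Over the leave-outs the log2 fold change ranged from -0.25 to 0.41 for *mcm2*, -0.24 to 0.066 for *jun-1*, -0.23 to 0.55 for *PCNA*, -0.15 to 0.19 for *NKX2.1*, -0.090 to 0.12 for *Ku80*, -0.092 to 0.10 for *ndk-4*, -0.046 to 0.10 for *ndk*, -0.025 to 0.065 for *ndk-3*, -0.011 to 0.060 for *dvl-b* and -0.0055 to 0.21 for *follistatin*. The causes were not tested. Levels under about 1 CPM, as for *PCNA*, rest on few counts and limit what could be detected.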
